A study of Arabidopsis thaliana with 6 samples.

Results

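Moderate increases of nuclear-gene transcripts in Arabidopsis thaliana plants that overexpress PCO1 are described here, under low oxygen. Members are the probe sets, control probe sets excluded, whose mean over the 3 35S:PCO1 arrays exceeded the mean over the 3 wild-type arrays by 0.35 to 0.65 on the log2 scale, whose every 35S:PCO1 value lay above every wild-type value, and whose 35S:PCO1 mean was at least 5. Of 22746 probe sets on the array that are not controls, 84 met these values, or 0.369%. Left out were 18 plastid-encoded probe sets, 4 that name several genes, and that of AT4G10280, which left 61 members. Of these, 24 name 1 nuclear gene each, 24 genes in all, and 37 have no entry in the probe annotation. The unlisted members have no name and no genome of origin in that annotation. The account of genes therefore covers the 24, and "nuclear" is checked for those only. Some of the 37 may be plastid-encoded. In the order of the probe sets, the unlisted member with the largest change, 0.65, stands between probe sets of plastid genes.

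The study set 35S:PCO1 plants, where a viral promoter active in most tissues (35S) drives the plant cysteine oxidase PCO1, against wild-type plants, with 3 arrays in each group. Both groups grew on soil in short days of 8 h light at 22 °C and 16 h darkness at 18 °C, and both received the same treatment, 4 h of 5% oxygen in darkness that began 2 h into the day. Plants in normal air are not analysed here, so every value compares genotypes under hypoxia and none measures induction. The labels disagree on age (4 or 5 weeks) and on material (rosettes or entire plants), and they do not say how many lines or plants stand behind an array, so the spread between arrays may be partly technical.

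Plant cysteine oxidases spend oxygen on the N-terminal cysteine of the ERF-VII transcription factors, and the oxidised factors are then broken down by the N-degron pathway. When oxygen is short the factors persist and activate genes of fermentation and other hypoxia responses. The members were chosen by their signals and not by pathway. The products of those with a known role work in RNA handling, lipid metabolism, redox chemistry, organelle membranes and peptide breakdown.

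Values are RMA (robust multi-array average) signals on the log2 scale, deposited by the authors, on which a change of 1 is a 2-fold difference. Array medians were between 5.86 and 5.91, and correlations between arrays across probe sets between 0.994 and 0.999. Wild type replicates 2 and 3 lay farthest from their group mean, with a root mean square deviation of 0.117 and 0.112 over all tested probe sets, against 0.069 to 0.103 on the other arrays, so the members whose change was smallest without one of them are also given without it. The leaf markers LHCB4.1, PSAN and RCA, 3 of 8 listed, lay between 12.25 and 13.32 on every array, and the root markers PYK10 and EXPA7, 2 of 6 listed, averaged 6.26 to 6.34 on the 35S:PCO1 arrays and 6.40 to 6.48 on the wild-type arrays. Singly, PYK10 differed by -0.18 (SE 0.097) and EXPA7 by -0.10 (SE 0.088), and in each gene the groups overlapped. The part of this root-marker difference in the results was not tested. None of the 7 flower and seed markers was matched, and PCO1 itself has no probe set in the annotation used here, so the transgene is not analysed here. In rosettes or whole plants, fewer cells of a type and less RNA per cell cannot be told apart.

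Among the 24 named genes the change ran from 0.35 to 0.56 with a median of 0.39, that is, from 1.28-fold to 1.47-fold with a median of 1.31-fold. The median over all tested probe sets was -0.012. These changes chose the genes, so they are a description and carry no test. The 35S:PCO1 means of the 24 spread from 5.22 to 10.22 with a median of 7.61, against a median of 7.18 for all probe sets whose 35S:PCO1 mean was at least 5. The clear space between the lowest 35S:PCO1 and the highest wild-type value had a median of 0.17, and it was over 0.2 in 10 genes and under 0.05 in 1, AT1G62510. Across all tested probe sets, 5.68% had every 35S:PCO1 value above every wild-type value and 10.5% had the opposite order. In the fit of all tested probe sets with limma, which called 0.0703% of them higher at an adjusted p under 0.05, 1 of the 24 named genes was called (AT2G14860) and 5 of the 61 members. That fit uses the values that chose the members, so nothing is read from these counts.

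**Figure D1:**
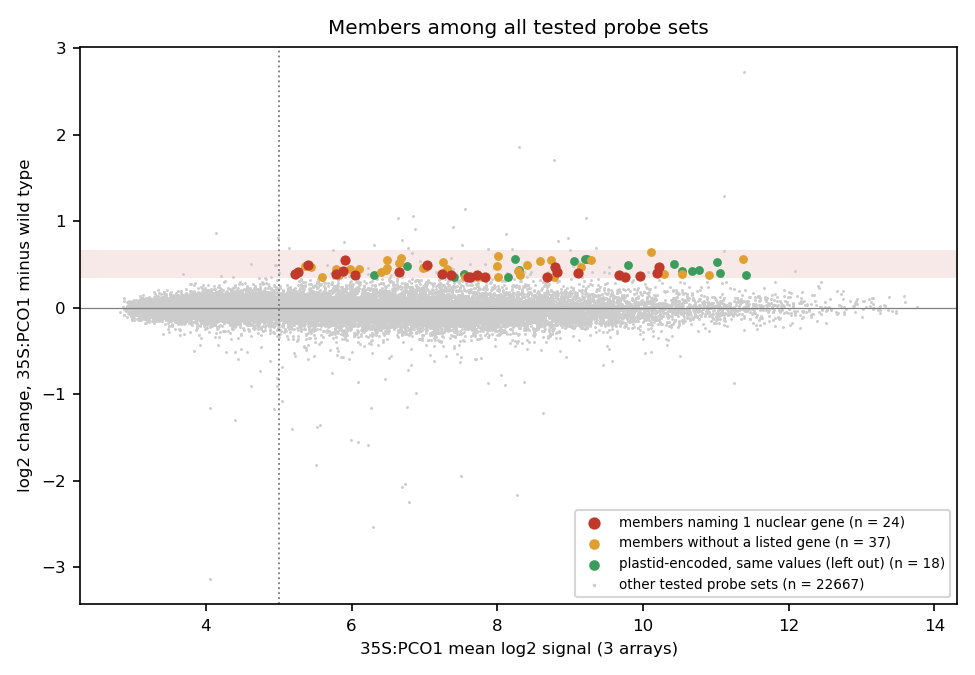
Each point is 1 of the 22746 tested probe sets, with its mean log2 signal on the 3 35S:PCO1 arrays (horizontal axis) and its log2 change, 35S:PCO1 minus wild type (vertical axis); the shaded band is the range from 0.35 to 0.65 and the dotted line the minimum mean of 5. The 24 named members (red) and 37 unlisted members (orange) lie along the upper edge of the cloud over signals from 5.22 to 11.37, with the 18 plastid-encoded probe sets that met the same values in green.

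The bounds cut through a continuous range. The genes just inside the lower bound were AT1G30820 at 0.352, AT4G08310 at 0.359 and AT3G58510 at 0.360, and those just outside it were AT3G52640 at 0.341, AT4G16240 at 0.341 and AT1G60200 at 0.337. At the other end the range was thin. The uppermost named members were AT5G06480 at 0.56, AARE at 0.49 and AT2G14860 at 0.49, and the next genes above the upper bound were AT1G07050 at 0.68, AT3G55760 at 0.86 and AT4G12490 at 0.91. A further 14 nuclear genes had a change within the bounds and a 35S:PCO1 mean of at least 5 but overlapping groups. SECA2 alone, at a 35S:PCO1 mean of 4.21, missed only the minimum level.

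Genes that act on RNA, nucleotides and nuclear import formed a group of 4 with the smallest spread of changes, from 0.35 to 0.38. PRH75 (AT5G62190) encodes a nucleolar DEAD-box RNA helicase, an enzyme type that unwinds RNA with ATP during ribosome assembly. Its signals were 9.93, 10.02 and 9.93 in 35S:PCO1 replicates 1, 2 and 3, against 9.74, 9.32 and 9.69 in the wild-type ones, a difference of 0.37 (SE 0.11). The 35S:PCO1 arrays were close together and wild type replicate 2 was far below the other two wild-type arrays. AT3G58510, another DEAD-box RNA helicase, measured 7.56, 7.57 and 7.65 in 35S:PCO1, against 7.23, 7.02 and 7.46 in wild type, which is 0.36 (SE 0.10) higher. AT4G27640 encodes an importin of the beta type, a carrier of proteins through the nuclear pore, and had signals of 7.79, 7.61 and 7.77 in 35S:PCO1, against 7.49, 7.08 and 7.46 in wild type, with a difference of 0.38 (SE 0.11). In all of these the lowest array was wild type replicate 2, and without it the change became 0.24 for PRH75, 0.25 for AT3G58510 and 0.24 for AT4G27640.

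The fourth gene of the group varied differently. AT1G30820 encodes a CTP synthase, which makes the nucleotide CTP from UTP for RNA and membrane lipid synthesis. It stood at 9.72, 9.74 and 9.78 in 35S:PCO1, against 9.42, 9.61 and 9.16 in wild type, with a difference of 0.35 (SE 0.10). Here wild type replicate 3 was the lowest array and replicate 2 the highest of the wild-type arrays, unlike in the helicases, and leaving out wild type replicate 3 gave 0.23.

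**Figure D2:**
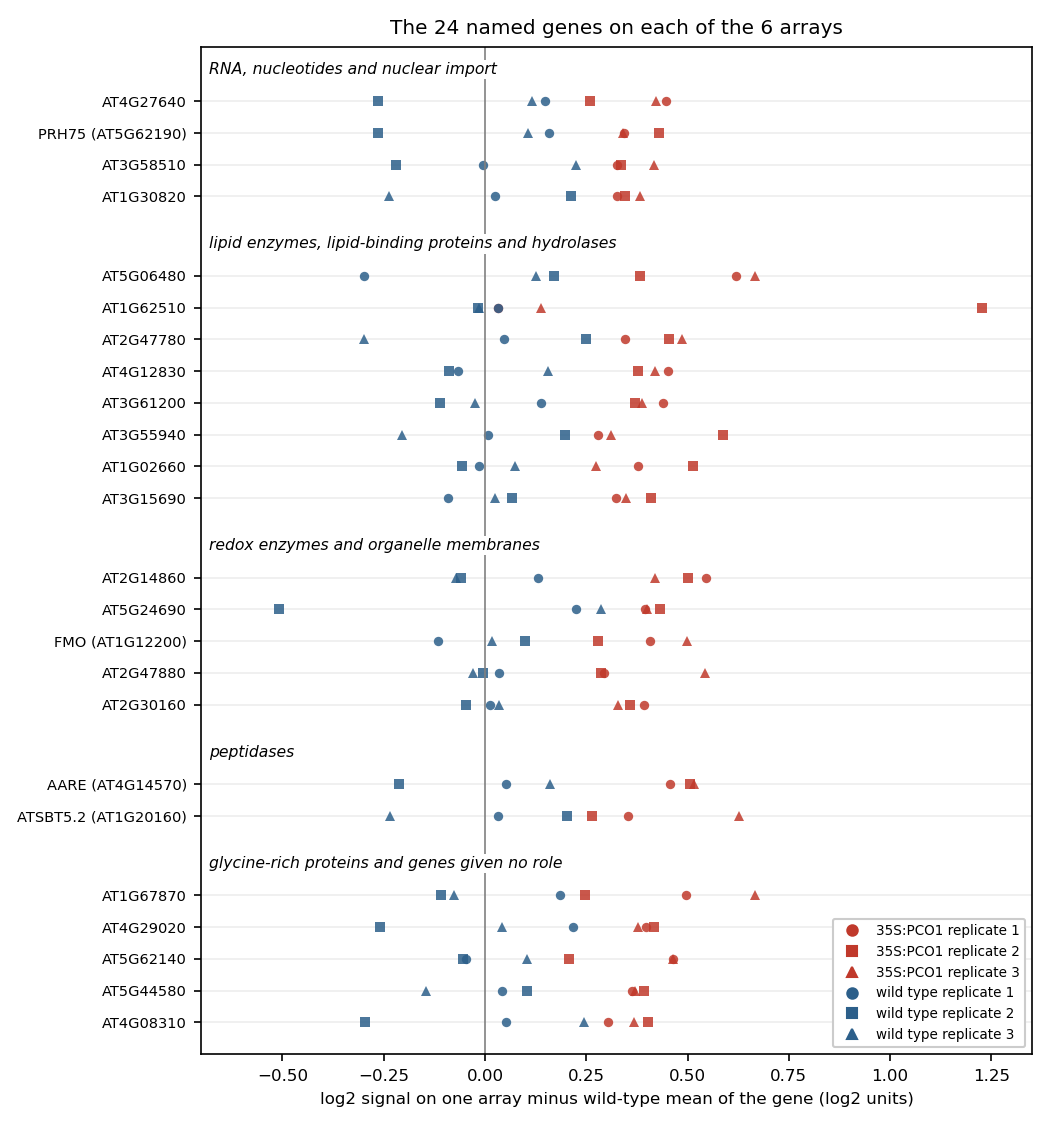
Each row is 1 of the 24 named genes, grouped by role, and each symbol is 1 array, with 35S:PCO1 in red and wild type in blue and the replicate number by shape; the horizontal axis is the log2 signal minus the wild-type mean of that gene. In every row the red symbols lie right of the blue ones, as the selection requires (nearly touching for AT1G62510), while the order of the blue symbols differs between genes: wild type replicate 2 (square) is far to the left for AT5G24690, AT4G27640, PRH75 and AT4G08310, and wild type replicate 3 (triangle) for AT1G30820 and AT2G47780.

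The largest role group held 8 genes for lipid enzymes, lipid-binding proteins and hydrolases, with changes from 0.36 to 0.56 and a median of 0.41. AT5G06480 encodes a protein with the MD-2-related lipid-recognition domain, a fold that binds lipids, and had the largest change of the 24. Its signals were 5.97, 5.73 and 6.02 in 35S:PCO1, against 5.05, 5.52 and 5.48 in wild type, a difference of 0.56 (SE 0.13), and wild type replicate 1 was the low array. AT2G47780, a member of the rubber elongation factor family, whose plant proteins coat lipid droplets, gave 5.80, 5.91 and 5.95 in 35S:PCO1, against 5.51, 5.71 and 5.16 in wild type. Its difference of 0.43 (SE 0.12) became 0.28 without wild type replicate 3, its lowest array. AT4G12830, of the alpha/beta-hydrolase superfamily, was more even, with 6.69, 6.62 and 6.66 in 35S:PCO1, against 6.17, 6.15 and 6.40 in wild type and a difference of 0.42 (SE 0.077). AT3G61200, of the thioesterase superfamily, whose enzymes cleave acyl groups from carrier thiols, had 9.15, 9.08 and 9.10 in 35S:PCO1, against 8.85, 8.60 and 8.68 in wild type and a difference of 0.40 (SE 0.074). In both of these hydrolase genes the 35S:PCO1 arrays lay within 0.1 of each other.

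AT1G62510, of the bifunctional inhibitor and lipid-transfer protein superfamily, owes its membership to 1 array. It read 8.36, 9.55 and 8.47 in 35S:PCO1 replicates 1, 2 and 3, against 8.36, 8.31 and 8.31 in wild type, so 35S:PCO1 replicate 1 lay only 0.0020 above the highest wild-type array and replicate 2 stood far above all others. The change of 0.47 (SE 0.26) became 0.086 without 35S:PCO1 replicate 2 and up to 0.68 without another array. AT1G62500, the gene next to it in the gene table and of the same superfamily, lay in the other direction, at 5.60, 5.48 and 5.61 in 35S:PCO1, against 7.01, 6.89 and 6.86 in wild type (log2 change -1.36, SE 0.067, limma adjusted p = 9.7e-05). All 3 35S:PCO1 arrays of AT1G62500 lay far below its wild-type arrays.

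The remaining genes of the lipid and hydrolase group act in plastids and at membranes. AT3G15690 encodes a biotin attachment domain-containing protein of the type that holds back plastid acetyl-CoA carboxylase, the entry enzyme of fatty acid synthesis, and was higher by 0.36 (SE 0.065). AT1G02660 encodes a lipase of plastid membrane lipids and was higher by 0.39 (SE 0.076). AT3G55940, a phosphoinositide-specific phospholipase C, which releases inositol phosphates from membrane lipid, was higher by 0.39 (SE 0.12). Leaving out 1 array moved these 3 changes to between 0.31 and 0.39, 0.33 and 0.44, and 0.29 and 0.49, in the same order.

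Redox enzymes and organelle membrane proteins made up 5 members, with changes from 0.36 to 0.49. AT2G14860 encodes a protein of the Mpv17 and PMP22 family, membrane proteins of peroxisomes and mitochondria. It measured 5.45, 5.41 and 5.33 in 35S:PCO1, against 5.04, 4.85 and 4.84 in wild type, a difference of 0.49 (SE 0.074), and with any 1 array left out the change stayed between 0.45 and 0.55. AT2G30160, a mitochondrial carrier related to the iron importers called mitoferrins, had the tightest values of all 24 genes. They were 7.86, 7.83 and 7.80 in 35S:PCO1, against 7.48, 7.42 and 7.51 in wild type, with a difference of 0.36 (SE 0.057) and leave-one-out changes from 0.34 to 0.38.

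AT2G47880 encodes a small protein of the glutaredoxin family, whose classical members use glutathione to reduce disulfide bonds. Its signals were 7.29, 7.28 and 7.54 in 35S:PCO1, against 7.03, 6.99 and 6.96 in wild type, a difference of 0.37 (SE 0.079), with 35S:PCO1 replicate 3 above the rest and the wild-type arrays close together. FMO (AT1G12200), named flavin monooxygenase in the gene table, belongs to enzymes that insert an atom of molecular oxygen into their substrates. Its 35S:PCO1 mean was the lowest of the 24 genes, with signals of 5.23, 5.10 and 5.32 in 35S:PCO1, against 4.71, 4.92 and 4.84 in wild type, a difference of 0.39 (SE 0.081). The groups did not overlap in either gene, and the space between them was wider than the range of the wild-type arrays for AT2G47880 but not for FMO.

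AT5G24690 belongs to the RETICULATA-related family of plastid proteins, named for a mutant with net-patterned leaves, and owes its membership to a low wild-type array. Its selected probe set read 8.81, 8.85 and 8.82 in 35S:PCO1, against 8.64, 7.91 and 8.70 in wild type, so the 35S:PCO1 arrays were nearly equal and wild type replicate 2 was far below the other wild-type arrays. The difference of 0.41 (SE 0.18) became 0.15 without wild type replicate 2. It is the only one of the 24 genes with a second probe set that names it alone, and that brighter probe set, which the selection did not use, gave 9.77, 9.80 and 9.76 in 35S:PCO1, against 9.71, 9.82 and 9.77 in wild type. Its change was 0.011 (SE 0.058) and its groups overlapped. The 2 probe sets of this gene thus do not show the same difference, and for the other 23 genes the annotation lists no second probe set to compare.

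Peptidases were encoded by 2 members, higher by 0.49 and 0.41. AARE (AT4G14570), the acylamino acid-releasing enzyme, cleaves N-terminally blocked residues from peptides and also degrades oxidised proteins. Its signals of 6.99, 7.04 and 7.05 in 35S:PCO1, against 6.59, 6.33 and 6.70 in wild type, gave a difference of 0.49 (SE 0.093), the second in size, and the widest clear space between the groups among the 24, at 0.30. ATSBT5.2 (AT1G20160), a secreted subtilisin-like serine protease that processes a peptide limiting stomatal number, read 5.21, 5.12 and 5.48 in 35S:PCO1, against 4.89, 5.06 and 4.62 in wild type, with a difference of 0.41 (SE 0.13). Its groups were only 0.062 apart at the nearest pair of arrays, with wild type replicate 2 as the high wild-type array and replicate 3 as the low one.

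The brightest 2 of the 24 genes encode glycine-rich proteins. AT1G67870 measured 10.25, 10.00 and 10.42 in 35S:PCO1, against 9.94, 9.64 and 9.68 in wild type, a difference of 0.47 (SE 0.12), and its groups were 0.060 apart at the nearest pair. AT4G29020 measured 10.19, 10.21 and 10.17 in 35S:PCO1, against 10.01, 9.53 and 9.84 in wild type, a difference of 0.40 (SE 0.11); its 35S:PCO1 arrays were nearly equal, wild type replicate 2 was the lowest array, and without that array the change was 0.27. No role is given here for AT5G44580, AT5G62140 and AT4G08310, whose changes were 0.37 (SE 0.074), 0.38 (SE 0.086) and 0.36 (SE 0.12). That of AT4G08310 became 0.21 without wild type replicate 2.

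The order of the wild-type arrays divided the 24 genes. Wild type replicate 2 was the lowest of the wild-type arrays in 14 of the 24 (58.3%), replicate 3 in 7 and replicate 1 in 3. Over all tested probe sets replicate 2 was the lowest in 30.9%. The selection uses these wild-type values, so the shares in this paragraph are a description and carry no test. By role, replicate 2 was the lowest in 3 of the 4 genes for RNA, nucleotides and nuclear import and in 4 of the 8 lipid and hydrolase genes. The same array was the lowest in 2 of the 5 redox and organelle genes, 1 of the 2 peptidase genes and 4 of the 5 remaining genes. Replicate 2 was also the lowest in 19 of the 37 unlisted members and in 16 of the 18 plastid-encoded probe sets left out of the members. The wild-type standard deviation exceeded that of 35S:PCO1 in 18 of the 24 genes (75%), against 58.0% of all tested probe sets. For the 24 the medians were 0.058 in 35S:PCO1 and 0.18 in wild type. Among the 37 unlisted members this order held for only 17 (45.9%). Among all 61 members it held for 35 (57.4%), near the share of all tested probe sets.

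As means over the set, the 24 genes stood at 7.63, 7.67 and 7.67 in 35S:PCO1 replicates 1, 2 and 3, against 7.29, 7.20 and 7.27 in the wild-type ones. Their group means were 7.66 ± 0.022 in 35S:PCO1 and 7.25 ± 0.047 in wild type (SD, n = 3 each), a difference of 0.41 that the selection sets. The 18 plastid-encoded probe sets averaged 9.22 ± 0.025 in 35S:PCO1 and 8.76 ± 0.29 in wild type (SD, n = 3 each), with wild type replicate 2 lying 0.34 below the wild-type mean, where the 24 nuclear genes lay 0.053 below it. Without wild type replicate 2 the median change was 0.38 for the 24 genes, 0.41 for the unlisted members and 0.29 for the plastid-encoded probe sets. The difference between these sets in how far that array moves them was not tested.

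**Figure D3:**
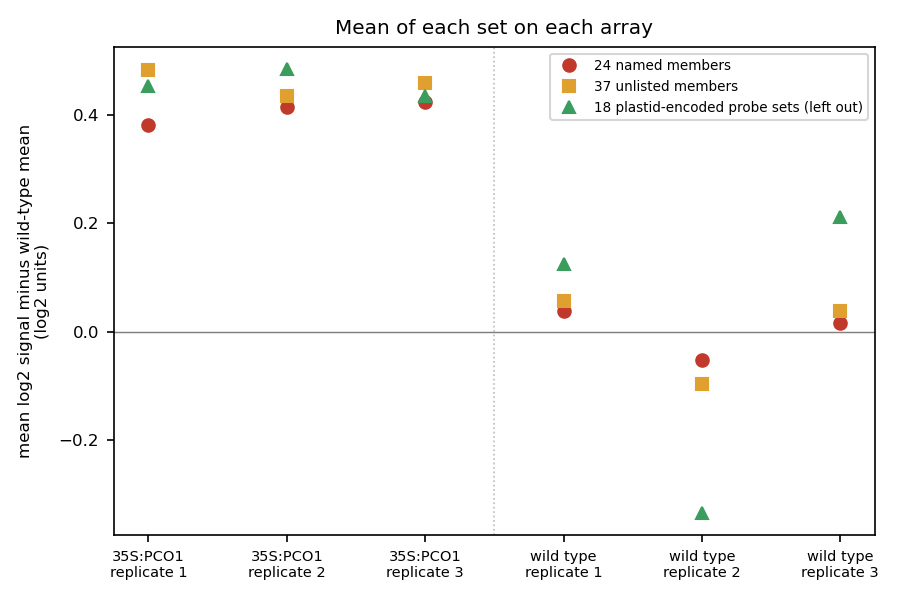
Each symbol is the mean over a set of probe sets on 1 array, as log2 signal minus the wild-type mean of each probe set; sets are the 24 named members (circles), the 37 unlisted members (squares) and the 18 plastid-encoded probe sets that met the same values (triangles). The 35S:PCO1 arrays of the 24 lie between 0.38 and 0.42 and their wild-type arrays between -0.053 and 0.037, while the plastid-encoded set falls to -0.34 on wild type replicate 2.

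Membership changed with the arrays used. With each array left out in turn, 5 of the 24 met all values of the selection in all 6 cases: AT5G06480, AARE, AT2G14860, AT1G67870 and AT4G12830. The change fell under 0.35 in at least 1 case for 19 genes, and the changes ranged from 0.086 to 0.68; since the selection keeps the groups apart, none could turn negative. For 7 genes the change moved by over 1.5 times: to 0.086 for AT1G62510 without 35S:PCO1 replicate 2, to 0.15 for AT5G24690, 0.21 for AT4G08310, 0.24 for PRH75 and 0.24 for AT4G27640 without wild type replicate 2, and to 0.28 for AT2G47780 and 0.23 for AT1G30820 without wild type replicate 3. Wild type replicate 2 also gave the smallest change when left out for AT3G58510 (0.25), AT4G29020 (0.27), AT2G30160 (0.34), AT3G61200 (0.34), AT4G12830 (0.37) and AARE (0.39). Wild type replicate 3 did so for AT3G55940 (0.29), ATSBT5.2 (0.30), AT5G44580 (0.30) and AT2G14860 (0.45). In 10 genes the 6 leave-one-out changes spanned less than 0.15, among them AT2G30160, AT3G15690, AT2G14860 and FMO. How many nuclear genes met the values also depended on the arrays, since 5 arrays make the order of groups easier to meet. That number was 41 without wild type replicate 2, of which 16 were among the 24, 49 without wild type replicate 3, 37 without wild type replicate 1 and 73 without 35S:PCO1 replicate 2.

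**Figure D4:**
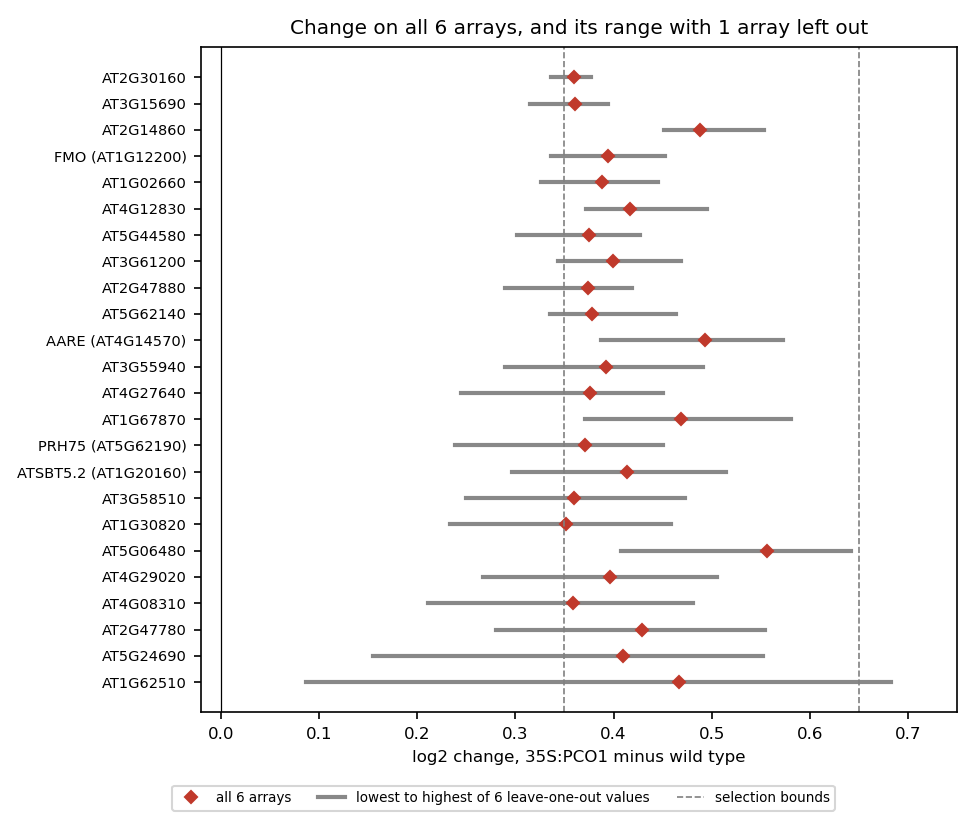
For each of the 24 named genes the diamond marks the log2 change, 35S:PCO1 minus wild type, on all 6 arrays, and the bar spans the lowest to the highest change when 1 array is left out; dashed lines are the selection bounds of 0.35 and 0.65. Bars are short for AT2G30160 and AT3G15690 at the top and long for AT5G24690 and AT1G62510 at the bottom, where the lowest values are 0.15 and 0.086.

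The 37 unlisted members had changes from 0.35 to 0.65 with a median of 0.46 and 35S:PCO1 means from 5.35 to 11.37. Their array means were 7.80, 7.76 and 7.78 in 35S:PCO1, against 7.38, 7.23 and 7.36 in wild type, again with wild type replicate 2 lowest, and 4 of them were called by limma. Their genes are not named here. With the signs turned and a wild-type mean of at least 5, 89 probe sets met the same values as moderate decreases. Of these, 43 name 1 nuclear gene, against 24 selected as increases. All tested probe sets lean the same way, with 5.68% having every 35S:PCO1 value above every wild-type value and 10.5% below. Nothing particular to the members is therefore read from these counts. In those 43 the wild-type standard deviation exceeded that of 35S:PCO1 in 60.5%, and wild type replicate 2 was the lowest wild-type array in 18.

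The 24 genes lie on all 5 nuclear chromosomes, with 6, 4, 4, 5 and 5 on chromosomes 1 to 5. None is directly next to another member among the protein-coding genes of the gene table. The closest pairs were AT5G62140 and PRH75, with 5 protein-coding genes between them, and AT2G47780 and AT2G47880, with 10. Of the 48 directly neighbouring genes, 21 were matched to a probe set of their own in the annotation, and their median change was 0.0044, with 11 above zero. The highest were AT5G62130, next to AT5G62140, at 0.33 (SE 0.14) and AT3G61210, next to AT3G61200, at 0.26 (SE 0.10), neither called. The lowest was AT1G62500 at -1.36, described above.

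None of the 24 genes is on the 5 pathway lists drawn up for this comparison. Of 21 genes of the hypoxia response, 8 were matched to a probe set in the annotation, with a median change of -1.39. Of these, 7 were called lower and none higher. This list was drawn up with earlier results of these arrays known and is no independent evidence. Leaf starch metabolism had 3 of 22 genes matched, none called, with PWD, a kinase that phosphorylates starch for its breakdown, at 0.20 (SE 0.065) and SBE2.2, a starch branching enzyme, at -0.079 (SE 0.078). The clock gene GI (1 of 14 matched) had 0.015 (SE 0.15), the organelle RNA polymerase gene AT5G15700 (1 of 8 on the plastid transcription list) 0.13 (SE 0.057), and AT5G48570 of the heat shock list (1 of 12) 0.11 (SE 0.097), none called. Over all 13217 nuclear genes matched, 7 were called higher and 20 lower, and the median change was -0.014. Most genes of these lists were not matched to a probe set, so the lists are described by their few matched genes.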

How the data were processed

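Total RNA of 6 samples, 3 35S:PCO1 and 3 wild type, was labelled with biotin and measured on Affymetrix Arabidopsis GeneChips, 1 array a sample, per the labels' protocols, and groups and replicate numbers came from the sample titles. The authors deposited log2 values computed with RMA, per the submitters' processing notes; its software and version are not given in the sources used here. The background correction, quantile normalization and median polish of RMA remove shifts common to an array and compress low signals. The number of arrays limits the precision.

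The values were used as deposited, without the 64 control probe sets. Of the 22746 others, 13513 name 1 gene, 503 several and 8730 are unlisted; symbols follow the TAIR10.1 gene table, matched on gene number and used for names and gene order only. The members and lists were chosen with earlier results of these data known, and role groups were assigned from known functions after the members were found. Standard errors and calls came from limma 3.58.1 (lmFit, eBayes; R 4.3.3), 2-sided, without covariates, with Benjamini-Hochberg adjustment over all probe sets. The fit was tested on simulated data of 22746 probe sets, where 93% of 100 changes of 0.5 and 100% of 100 changes of 1 were recovered. The simulated noise was independent and held no deviating array, so these shares may not hold for the real arrays. Values on each array are given for up to 5 members per role group with an annotated function, by largest change; the others are given by change. Where a listed gene had several probe sets, the brightest was used. Alternatives were a replicate block, median centring, repeated quantile normalization, trend and robust options, array weights, a filter at the 40th percentile of mean signal, a threshold of 0.10, other bounds of the selection, and each array left out in turn.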

Additional observations from a re-analysis of the deposited data

Results flagged for a closer look

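The array's control for 5S ribosomal RNA stands outside the comparisons above and was picked out as a signal in data not used there. Among the 64 control probe sets it alone had non-overlapping groups with a 35S:PCO1 mean of at least 5 and a change of at least 0.35. It read 5.66, 5.65 and 5.65 in 35S:PCO1, against 4.98, 3.93 and 5.45 in wild type replicates 1, 2 and 3, a log2 change of 0.868. Wild type replicate 2 was its lowest array, as it was for 14 of the 24 named genes. Its part in those results was not tested.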

How the results depend on the processing

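The median change of the 24 genes, 0.39 on all arrays, ranged from 0.38 to 0.42 with 1 array left out, was 0.40 after median centring, 0.41 after repeated quantile normalization and 0.36 with array weights, and is the same with the replicate block by construction. After median centring or repeated quantile normalization, 47 of 48 changes of single members moved by less than the pooled standard deviation of the arrays. The exception was AT2G30160, at 0.40 after repeated quantile normalization. Median centring moves every change by the same amount, for AT1G30820 from 0.352 to 0.360. That is less than the smallest pooled standard deviation, 0.038, so the median-centred part of this count was fixed in advance and only the quantile part could differ. With 1 array left out, single members ranged from 0.086 to 0.68, which cannot fall below zero because the selection keeps the groups apart. The mean of both probe sets of AT5G24690 was 0.21. The number of nuclear genes selected, 24, was 46 with bounds of 0.30 and 0.70 and 9 with bounds of 0.40 and 0.60, and with 1 array left out it ranged from 31 to 73; it was 36 after repeated quantile normalization, which included all 24. With unlisted probe sets the number, 61, was 99 and 34 under those bounds and 74 to 172 with 1 array left out. Over all probe sets limma called 60, of which 16 were higher; this became 255 under array weights (78 higher) and 23 to 60 with 1 array left out (23 with wild type replicate 1 omitted, 24 with 35S:PCO1 replicate 1 omitted, 33 with 35S:PCO1 replicate 3 omitted). With the replicate number as a block it was 26, of which 5 were higher. The block is not the main design because the design text names no pairing. The deviations of arrays with the same number correlated at -0.059, -0.22 and -0.26, and no array correlated best with its own number. With 3 arrays a group these correlations cannot settle whether arrays were paired. Dim signals near the lower end of the scale, 2.73, limit what can be seen of weak genes, and the minimum mean of 5 keeps them out of the members.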
